A study of Mus musculus with 9 samples.

Results

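Matricellular and elastic fibre genes encode secreted proteins that surround the cells of the heart and shape the matrix they sit in. Described here are 10 of them, Postn, Thbs1, Thbs2, Tnc, Sparc, Fn1, Spp1, Lox, Eln and Fbn1, taken by gene symbol from the 55401 genes of the deposited count table. All 10 passed the filter on low counts, which left 16762 genes for testing. RNA-seq libraries were made from primary neonatal mouse ventricular myocytes (NMVMs), isolated at day 1 after birth from C57BL/6J pups with the genotype WT. Each of 3 groups held 3 libraries. The control cultures stayed at normal oxygen in DMEM with serum. In the hypoxia group, glucose and serum were withdrawn and the cells were kept for 6 h in a closed chamber with an AnaeroPack-MIC oxygen absorber. The hypoxia + rSRGN group had the same medium and chamber with recombinant serglycin, a secreted proteoglycan, added for those hours, at a dose not given in the sources used here. Low oxygen and the loss of glucose and serum therefore cannot be told apart wherever a group is set against control. Nothing in the labels says that the 3 libraries of a group came from separate isolations of pups, so the p-values measure the spread between these libraries, which may be technical.

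Matricellular proteins such as periostin, tenascin C, the thrombospondins, SPARC and osteopontin sit in the extracellular matrix and act mainly on cell adhesion, growth factor activity and collagen assembly rather than as structural material. Fibronectin forms the early scaffold on which other matrix proteins are laid down. Elastic fibres consist of elastin deposited on microfibrils of fibrillin and joined into an elastic network by lysyl oxidase. In the heart these genes are known chiefly from fibroblasts and vessel walls, and several are known to be turned up after injury.

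The libraries held between 16583985 and 22781557 counted fragments, with the 3 control libraries above all others. The 10 genes together took 1.11% to 1.19% of the fragments in control, 2.27% to 2.44% in hypoxia and 2.54% to 2.66% in hypoxia + rSRGN. The lowest count of any of them was 977, for Spp1 in hypoxia replicate 1. The 15 cardiomyocyte markers, which check the labelled cell type, were present in every library, with a summed level of 43348 to 53263 CPM in control. CPM are the fragments of a gene scaled to a common library total, with TMM factors that even out the composition of the libraries. The same sum was 3811 to 5961 CPM in hypoxia and 7528 to 8102 CPM in hypoxia + rSRGN. Fibroblast markers were also present, at a summed 10819 to 12548 CPM in control. Their sum was 22920 to 26101 CPM in hypoxia and 24688 to 25277 CPM in hypoxia + rSRGN. Of the 12, 0 were without counts in any library. The sum includes Col1a1, Col1a2 and Col3a1, at means of 3593, 2449 and 2552 CPM in control. They are matrix genes, listed again with the collagens below, so the list is not separate from matrix expression.

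All 10 genes are annotated as protein coding in GRCm38. Postn (ENSMUSG00000027750.16) spans chr3:54361109-54391037 on the plus strand, Thbs1 (ENSMUSG00000040152.8) chr2:118111876-118127133 on the plus strand and Spp1 (ENSMUSG00000029304.14) chr5:104435118-104441050 on the plus strand. On the minus strand lie Thbs2 (ENSMUSG00000023885.9) at chr17:14665500-14694235, Tnc (ENSMUSG00000028364.15) at chr4:63959785-64047015, Sparc (ENSMUSG00000018593.13) at chr11:55394500-55423183 and Fn1 (ENSMUSG00000026193.15) at chr1:71585520-71653200. Eln (ENSMUSG00000029675.12) at chr5:134702593-134747323 and Fbn1 (ENSMUSG00000027204.13) at chr2:125300594-125507993 are also on the minus strand, as is Lox. Counting did not use strand, and 7 of the 10 share exonic bases with another annotated gene. The shared part was 18.8% for Spp1, with Gm42793 on the same strand, and 20.1% for Fbn1, with the antisense Gm9913. It was at most 3.42% for the other 5, so the levels of Spp1 and Fbn1 may be understated where such fragments were left out.

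RefSeq promoter windows (GRCm38.p6, 250 bases before to 50 after a start) were matched for 6 of the 10 genes, with 9 windows in all. No window was matched for Thbs1, Fn1, Lox and Eln. Of the motifs searched, TATAAA, the core of the TATA box, was found on the gene's strand in 4 of the 9 windows, which belong to Postn, Tnc and Spp1, and in 8.32% of all 32851 windows. Its place differed between them, at positions -26 to -21 from the start in Postn, -126 to -121 in Tnc and -211 to -206 in Spp1. The windows are shown because these 3 genes cover both directions of change described below, with TATAAA in capitals.
Postn, chr3:54360857-54361156, plus strand: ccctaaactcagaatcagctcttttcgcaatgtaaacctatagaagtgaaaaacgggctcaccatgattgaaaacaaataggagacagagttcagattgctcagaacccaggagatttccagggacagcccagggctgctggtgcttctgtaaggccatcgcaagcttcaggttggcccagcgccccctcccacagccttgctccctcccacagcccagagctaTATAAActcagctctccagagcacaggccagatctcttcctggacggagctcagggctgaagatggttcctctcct
Tnc, chr4:64046966-64047265, minus strand: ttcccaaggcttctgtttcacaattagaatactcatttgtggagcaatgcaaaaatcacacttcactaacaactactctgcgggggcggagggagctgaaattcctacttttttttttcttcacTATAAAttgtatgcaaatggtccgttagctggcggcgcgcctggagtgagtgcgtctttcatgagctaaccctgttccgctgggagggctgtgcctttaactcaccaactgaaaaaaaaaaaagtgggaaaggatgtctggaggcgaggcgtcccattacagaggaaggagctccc
Spp1, chr5:104434861-104435160, plus strand: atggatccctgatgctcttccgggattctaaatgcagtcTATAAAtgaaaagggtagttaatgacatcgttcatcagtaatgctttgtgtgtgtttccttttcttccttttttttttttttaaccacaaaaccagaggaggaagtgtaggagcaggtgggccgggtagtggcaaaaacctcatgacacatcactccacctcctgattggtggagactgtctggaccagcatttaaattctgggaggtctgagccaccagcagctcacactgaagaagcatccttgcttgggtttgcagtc
The second Tnc window, from a start further along the gene, holds the same site at positions -205 to -200. Only the exact letters TATAAA were searched, so the similar letters tatataag, which lie nearer the start in that second window, were not counted. On either strand of the 9 windows there was no match to ACGTG (core of the hypoxia response element, 19.6% of all windows), TGANTCA (AP-1, 7.81%), the CArG box of serum response factor (1.63%), GAANNTTC (heat shock element, 7.86%) or CATTCC (TEAD, 14.7%). A missing match says only that these letters are not in these windows.

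The first comparison asks how the genes of the matrix stood after 6 h of hypoxia without glucose and serum. In hypoxia against control, 6 of the 10 genes rose, 1 fell and 3 were not called, where a call required an adjusted p below 0.05 in edgeR's quasi-likelihood test and a fold change of at least 1.5. Of all genes tested, 26.4% were called higher and 25.1% lower in this comparison. Sparc, Eln and Postn rose by 2.20-fold to 2.66-fold, Tnc, Lox and Fn1 rose by 1.58-fold to 1.85-fold, and Spp1 fell to 0.596 of its control level. Thbs1, Thbs2 and Fbn1 stayed under the fold limit. The median log2 fold change of the 10 genes was 0.72, beside 0.05 over all genes tested. Since these are bulk samples, fewer cells of a type and less RNA per cell cannot be told apart, and a gene of one cell type can rise in share because another type lost RNA. In the same comparison 9 of 12 fibroblast markers were called higher and 15 of 15 cardiomyocyte markers lower, and their part in the changes was not tested.

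The second comparison asks what rSRGN added to the same hypoxic culture. In hypoxia + rSRGN against hypoxia, Thbs1 rose and the other 9 genes were not called, while 2.27% of all genes tested were called higher and 0.859% lower. The count of 1 became 2 with Fbn1 under 6 of the 16 alternatives that change the fit or the libraries, and 3 with Fbn1 and Tnc without hypoxia replicate 2. Without the fold limit, 6 of the 10 genes were higher at an adjusted p below 0.05 (Thbs1, Fbn1, Tnc, Lox, Fn1 and Thbs2) and 0 were lower, beside 10.5% of all genes higher and 6.11% lower. The libraries of the 2 groups did not overlap for 7 of the 10 genes, the 6 named and Sparc, as for 32% of all genes tested. The median log2 fold change was 0.39 for the 10 genes and -0.03 over all genes tested. With rSRGN, 0 fibroblast markers were called higher and 1 of 12 lower, while 12 of 15 cardiomyocyte markers were called higher. Against control, 8 of the 10 genes were called higher in hypoxia + rSRGN and 1 lower, beside 24.1% and 24.7% of all genes tested. This last comparison shares libraries with both of the others and is no separate evidence.

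**Figure D1:**
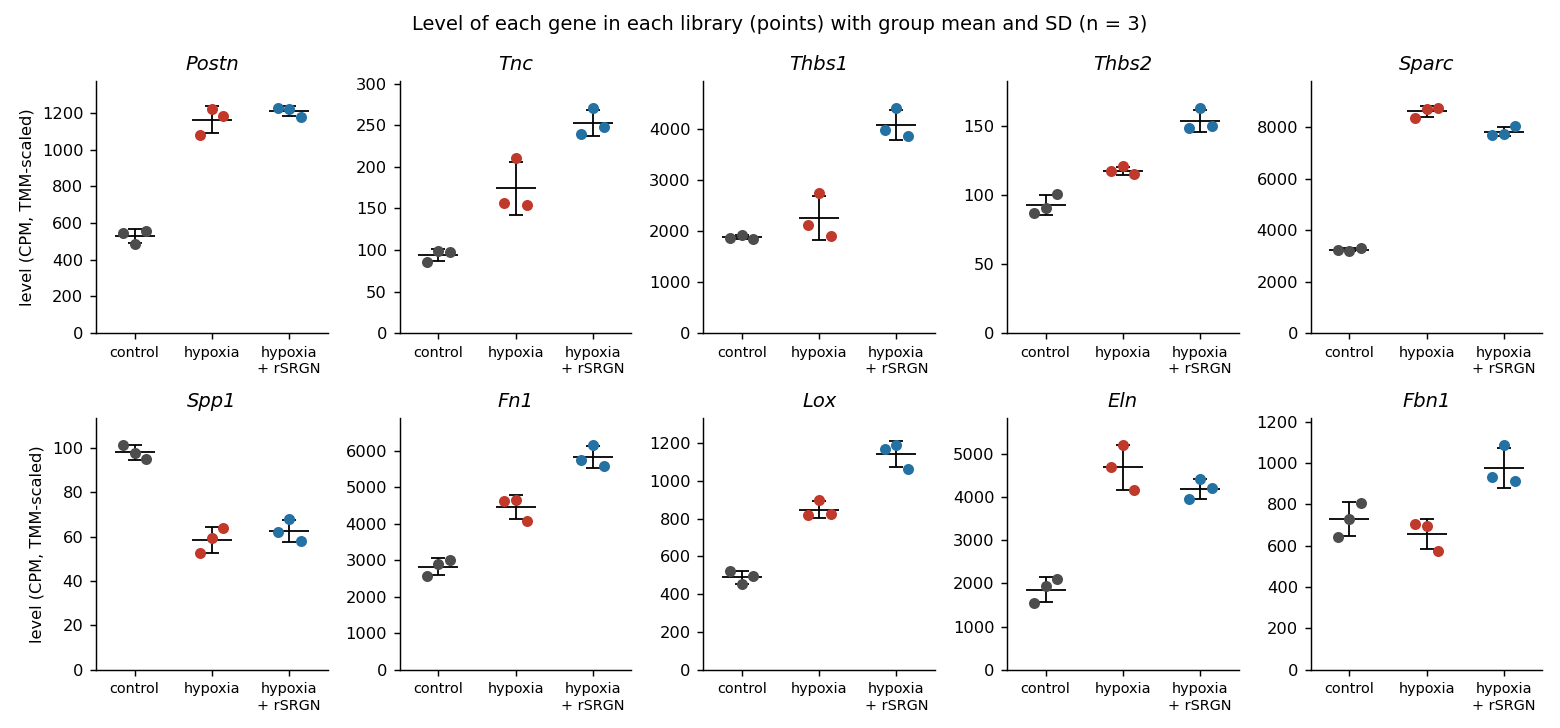
Level of each gene in each library in CPM scaled by TMM, with 3 libraries per group as points and the group mean and SD as bars, on linear axes that start at 0. For Postn, Sparc and Eln both hypoxic groups sit together above control, for Thbs1 the hypoxia + rSRGN libraries (3845 to 4401 CPM) stand above the rest, and for Spp1 both hypoxic groups sit below control.

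Postn encodes periostin, a secreted protein of activated fibroblasts that helps collagen fibrils to form. Its level in control was 544, 487 and 555 CPM, in hypoxia 1079.5, 1221 and 1186 CPM, and in hypoxia + rSRGN 1227, 1222 and 1177 CPM. Every hypoxic library lay above every control library, and the 2 hypoxic groups overlapped. The log2 fold change in hypoxia against control was 1.14 (SE 0.08, edgeR adjusted p = 8.93e-12), a 2.20-fold rise. The value for rSRGN against hypoxia was 0.06, with a 95% interval of -0.10 to 0.21 (edgeR adjusted p = 0.668). Its RefSeq window with TATAAA close to the start is shown above.

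Tnc encodes tenascin C, a large hexameric glycoprotein that loosens cell adhesion and is made in the developing and injured heart. It stood at 86.0, 99.3 and 97.4 CPM in control, 157, 211 and 154 CPM in hypoxia and 240.0, 271 and 248 CPM in hypoxia + rSRGN. The 3 groups did not overlap and formed 3 steps, with hypoxia replicate 2 high within its group. The first step had a log2 fold change of 0.89 (SE 0.10, edgeR adjusted p = 4.89e-08) and the second 0.54 (SE 0.10, edgeR adjusted p = 0.000788). The second step was 1.45-fold, just under the fold limit, and without hypoxia replicate 2 it was 0.70 on the log2 scale and was called.

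Thbs1 and Thbs2 encode thrombospondins 1 and 2, trimeric proteins that bind CD36, CD47 and integrins. Thrombospondin 1 is also known to activate latent TGF-beta. Thbs1 stood at 1863, 1922 and 1842 CPM in control, 2119, 2741 and 1900.0 CPM in hypoxia and 3963, 4401 and 3845 CPM in hypoxia + rSRGN. Control and hypoxia overlapped, while every library with rSRGN lay above every other library. The hypoxia group was the more scattered, with an SD of 436 CPM against 41.5 CPM in control. In hypoxia against control the log2 fold change was 0.26 (SE 0.10, edgeR adjusted p = 0.0231), under the fold limit, and its adjusted p ran from 0.000953 to 0.224 over the alternatives. With rSRGN against hypoxia it was 0.85 (SE 0.10, edgeR adjusted p = 3.85e-05), a 1.81-fold rise, and from 0.75 to 1.02 over the alternatives. Thbs1 was called in this comparison under all 16 that change the fit or the libraries.

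Thbs2 stood far lower, at 86.9, 90.4 and 101 CPM in control, 117, 121 and 115 CPM in hypoxia and 149, 163 and 150.3 CPM in hypoxia + rSRGN. Its 3 groups did not overlap, with the lowest levels in control and the highest with rSRGN. Each step was under the fold limit, at 0.35 (SE 0.07, edgeR adjusted p = 0.00028) for hypoxia against control and 0.39 (SE 0.07, edgeR adjusted p = 0.00123) for rSRGN against hypoxia. Against control the hypoxia + rSRGN group was 1.66-fold higher (log2 fold change 0.73, edgeR adjusted p = 1.11e-08) and was called.

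Sparc encodes SPARC (osteonectin), a collagen-binding glycoprotein that takes part in collagen processing. Its level was 3236, 3179 and 3317 CPM in control, 8377, 8725.5 and 8747 CPM in hypoxia and 7709, 7746 and 8046 CPM in hypoxia + rSRGN. All hypoxic libraries lay above control, and the rSRGN libraries lay between the other 2 groups without overlap. The rise in hypoxia against control was the steepest of the 10 genes, with a log2 fold change of 1.41 (SE 0.07, edgeR adjusted p = 1.43e-13), or 2.66-fold. The step with rSRGN was -0.14, with a 95% interval of -0.29 to 0.01, and did not pass the test (edgeR adjusted p = 0.215) although the groups were apart.

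Spp1 encodes osteopontin, a phosphoprotein that binds integrins and CD44 and that macrophages are known to make in injured tissue. It stood at 102, 97.7 and 95.1 CPM in control, 52.5, 59.4 and 63.8 CPM in hypoxia and 62.3, 68.0 and 57.9 CPM in hypoxia + rSRGN. Both hypoxic groups lay below control and overlapped each other. Spp1 was the 1 gene of the 10 that fell, by 0.75 on the log2 scale in hypoxia against control (SE 0.08, edgeR adjusted p = 4.65e-08). Between rSRGN and hypoxia the log2 fold change was 0.10, with a 95% interval of -0.07 to 0.28 (edgeR adjusted p = 0.46). Macrophage markers moved the same way, with 12 of 12 tested called lower in hypoxia and a summed level of 242 to 259 CPM in control, 26.3 to 28.9 CPM in hypoxia and 31.4 to 38.4 CPM in hypoxia + rSRGN. Another of the 13 listed, Cd163, was without counts in control and hypoxia. In hypoxia against control 15 of 15 cardiomyocyte and 6 of 8 endothelial markers were also called lower, and 0 of either list higher. The part of any of these markers in the change of Spp1 was not tested.

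Fn1 encodes fibronectin, the integrin-binding scaffold protein. It was measured at 2559.9, 2892 and 3016 CPM in control, 4639, 4658 and 4079 CPM in hypoxia and 5764, 6170.3 and 5588 CPM in hypoxia + rSRGN. The groups formed 3 steps without overlap, as for Tnc, Thbs2 and Lox. The log2 fold change was 0.66 in hypoxia against control (SE 0.08, edgeR adjusted p = 3.26e-07) and 0.39 with rSRGN against hypoxia (SE 0.08, edgeR adjusted p = 0.00282), the latter under the fold limit. Without control replicate 1 the first was 0.57 and no longer reached 1.5-fold.

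Lox encodes lysyl oxidase, the enzyme that cross-links elastin and fibrillar collagen, and lies at chr18:52516067-52529867 (ENSMUSG00000024529.14). Its level was 522, 454 and 495 CPM in control, 821, 899 and 822 CPM in hypoxia and 1166.5, 1191 and 1062 CPM in hypoxia + rSRGN. No library of one group overlapped those of another. Hypoxia against control gave a log2 fold change of 0.79 (SE 0.08, edgeR adjusted p = 5.28e-09), and rSRGN against hypoxia gave 0.43 (SE 0.08, edgeR adjusted p = 0.000714), or 1.34-fold. The hypoxia + rSRGN group stood 2.32-fold above control.

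Eln encodes tropoelastin, the elastic core of the fibre. It stood at 1537, 1929 and 2101 CPM in control, 4695, 5205 and 4161 CPM in hypoxia and 3943, 4407 and 4213 CPM in hypoxia + rSRGN. The hypoxic groups overlapped each other and lay far above control, where replicate 1 was lowest. In hypoxia against control Eln rose 2.53-fold (log2 fold change 1.34, SE 0.10, edgeR adjusted p = 9.61e-11). Between rSRGN and hypoxia the value was -0.16, with a 95% interval of -0.37 to 0.05 (edgeR adjusted p = 0.299).

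Fbn1 encodes fibrillin 1, the main protein of the microfibrils that carry elastin. Its level was 644, 731 and 809 CPM in control, 705, 694 and 575 CPM in hypoxia and 932, 1089 and 913 CPM in hypoxia + rSRGN. Control and hypoxia overlapped, and the libraries with rSRGN lay above both. For hypoxia against control the log2 fold change was -0.15, with a 95% interval of -0.34 to 0.05 (edgeR adjusted p = 0.172). The interval lies below the rise of any of the 6 genes that were called higher. With rSRGN against hypoxia it was 0.57 (SE 0.09, edgeR adjusted p = 0.00038), or 1.49-fold, at the edge of the fold limit. Fbn1 passed that limit under 7 of the 16 alternatives that change the fit or the libraries, which were DESeq2 (0.60), RLE scaling, a fit of the compared groups alone, and leaving out hypoxia replicate 1 or 2 or hypoxia + rSRGN replicate 1 or 3.

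**Figure D2:**
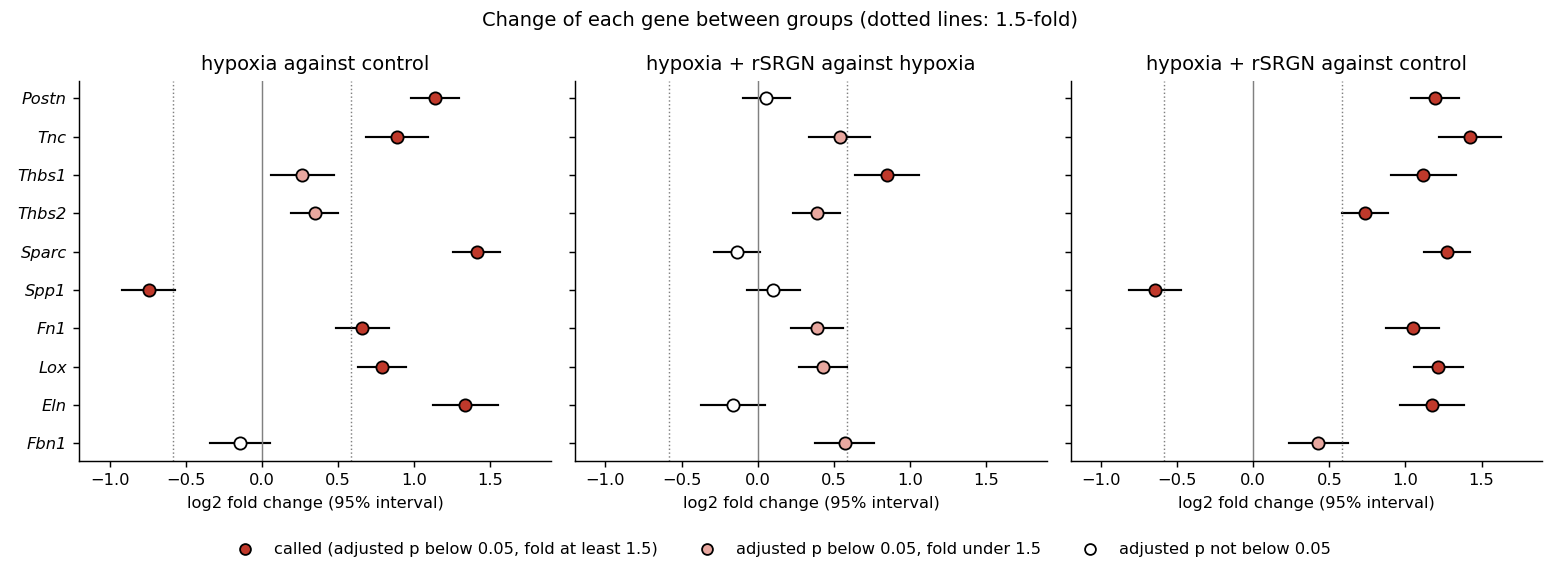
Log2 fold change of each gene (points) with its 95% interval (lines) in the 3 comparisons, from edgeR's quasi-likelihood fit over 9 libraries, with dotted lines at 1.5-fold. In hypoxia against control the values run from -0.75 for Spp1 to 1.41 for Sparc, and with rSRGN against hypoxia from -0.16 for Eln to 0.85 for Thbs1.

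Pairs of related genes were compared by the ratio of their counts within each library, which does not depend on scaling between libraries. For elastin and its microfibril, Eln/Fbn1 was 2.39, 2.64 and 2.60 in control, 6.66, 7.50 and 7.24 in hypoxia and 4.23, 4.05 and 4.61 in hypoxia + rSRGN. The 3 groups did not overlap, and the libraries with rSRGN stood between the others. On the log2 scale the ratio was 1.49 higher in hypoxia than in control, and with rSRGN it was lower than in hypoxia by a difference of -0.73 (exact two-sided permutation p = 0.1 for both, adjusted 0.15 over 9 tests). With 3 libraries against 3, a p of 0.1 is the smallest that this test can give.

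The count ratio Thbs1/Thbs2 was 21.5, 21.3 and 18.3 in control, 18.0, 22.6 and 16.5 in hypoxia and 26.6, 26.9 and 25.6 in hypoxia + rSRGN. Control and hypoxia overlapped, and every library with rSRGN was above them. Thus the log2 ratio differed by -0.10 between hypoxia and control (exact permutation p = 0.6) and by 0.48 between rSRGN and hypoxia (exact permutation p = 0.1, adjusted 0.15). For the injury-related pair, Tnc/Postn was 0.158, 0.204 and 0.175 in control, 0.146, 0.173 and 0.130 in hypoxia and 0.196, 0.222 and 0.210 in hypoxia + rSRGN. The libraries with rSRGN lay above those of hypoxia, by 0.49 on the log2 scale (exact permutation p = 0.1, adjusted 0.15), and overlapped control.

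**Figure D3:**
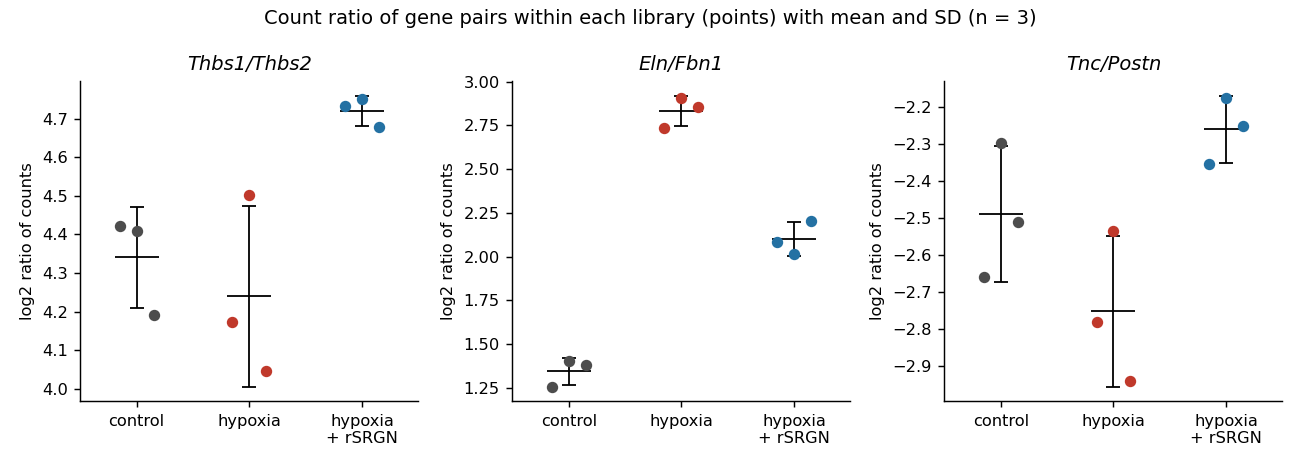
Log2 ratio of counts of 3 gene pairs within each library (points, 3 per group) with the group mean and SD. Eln/Fbn1 stands at 1.34 in control, 2.83 in hypoxia and 2.10 in hypoxia + rSRGN, while Thbs1/Thbs2 and Tnc/Postn are higher in hypoxia + rSRGN than in hypoxia.

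Per kilobase of exon, the level of the 10 genes can be ordered within a group. The length used joins all annotated exons of a gene, such as 8702 bases for Postn and 8098 for Eln. It can exceed the length of the transcripts present, so close places in the order may depend on the annotation. Sparc was first in all 3 groups, at 856 CPM per kb in control, 2275 in hypoxia and 2068 in hypoxia + rSRGN, and ranked 27, 12 and 13 among the 16762 genes tested. In control it was followed by Thbs1 at 309, Fn1 at 242, Eln at 229 and Lox at 103 CPM per kb, and Fn1 and Eln overlapped. Postn (60.8), Fbn1 (60.0) and Spp1 (59.5) could not be ordered in control, nor could Thbs2 (13.2) and Tnc (12.1). In hypoxia Eln was second at 579 CPM per kb, Fn1 (382) and Thbs1 (371) overlapped, and Tnc (22.4) stood above Thbs2 (16.8). Postn at 134 CPM per kb was then apart from Fbn1 at 54.3 and Spp1 at 35.5. In hypoxia + rSRGN Thbs1 was second at 670 CPM per kb, ahead of Eln (517) and Fn1 (499.9), which overlapped.

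Within control, replicates 1, 2 and 3 were the highest of their group in 2, 2 and 6 of the 10 genes and the lowest in 5, 3 and 2. Within hypoxia they were the highest in 1, 7 and 2 and the lowest in 4, 0 and 6. Within hypoxia + rSRGN they were the highest in 1, 8 and 1 and the lowest in 4, 0 and 6. These counts are a description, since the genes of a library share its preparation. For each gene, the tested gene with the most similar profile of log2 CPM over the 9 libraries was found among 14256 genes with a mean of at least 1 CPM. These were P4hb, a subunit of collagen prolyl hydroxylase, for Sparc (r = 0.999), Frzb, a secreted Wnt antagonist, for Postn (r = 0.998), Lamb1, a laminin chain, for Fn1 (r = 0.996), Fam107b for Lox (r = 0.996) and Septin9 for Eln (r = 0.995). For Tnc it was Noct (r = 0.993), for Thbs2 Ect2 (r = 0.992), for Thbs1 Arl5b (r = 0.989), for Spp1 Kdm3b (r = 0.988) and for Fbn1 Ap2b1 (r = 0.977). The 9 points share 3 group means, so r follows mainly the differences between groups and is given as a description.

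Elastic fibre assembly genes other than the 10 mostly rose in hypoxia against control, with 11 of 17 tested called higher, 2 lower and 4 not called, at a median log2 fold change of 0.93. Efemp1, which encodes fibulin 3, rose from 32.8 to 156 CPM (log2 fold change 2.25, edgeR adjusted p = 2.2e-15). The 2 that fell were Emilin2 (log2 fold change -3.92), a microfibril-associated glycoprotein, and Fbn2 (-1.80), the fibrillin of development, the latter named after its value was seen. In hypoxia + rSRGN against hypoxia 0 of the 17 were called in either direction, although 3 were higher and 3 lower without the fold limit. Among the other lysyl oxidases 3 of 4 were called higher in hypoxia, led by Loxl1, an elastin cross-linking enzyme (log2 fold change 1.02, edgeR adjusted p = 5.34e-10). With rSRGN 0 of 4 were called, and 2 were higher without the fold limit.

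Of 20 other matricellular genes, 16 were tested, and 11 rose and 4 fell in hypoxia against control, with a median of 0.98. Ccn1, a secreted angiogenic protein of the CCN family, rose from 246 to 716 CPM (log2 fold change 1.54, edgeR adjusted p = 9.67e-14). Those that fell were Thbs4 (log2 fold change -2.93), a thrombospondin of muscle and tendon, and Spock2, Tnr and Ccn4, which are named after their values were seen. Their log2 fold changes were -2.77, -2.67 and -0.91, and that of Tnr rests on few fragments, with a mean of 0.453 CPM in hypoxia (SD 0.496, n = 3). Against hypoxia, 2 were called higher with rSRGN and 0 lower, and without the fold limit 4 were higher and 1 lower. Thbs4 rose from a mean of 17.8 to 29.3 CPM (log2 fold change 0.72, edgeR adjusted p = 0.00432), and Spock2 was the other, at 0.62.

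Receptors for the proteins of these genes, mainly integrins, were mixed in hypoxia against control, with 5 of 17 called higher, 3 lower and 9 not called. Itgb8, an integrin chain that binds latent TGF-beta, rose from 9.71 to 40.4 CPM (log2 fold change 2.06), and Cd36, the thrombospondin and fatty acid receptor of muscle, fell from 182 to 9.68 CPM (log2 fold change -4.24, edgeR adjusted p = 6.53e-19). With rSRGN against hypoxia 3 of 17 were called higher and 0 lower, and 12 were higher without the fold limit. Cd36 rose to 18.1 CPM (log2 fold change 0.90, edgeR adjusted p = 3.91e-05), and the others, named after their values were seen, were Itga8 (0.61), the integrin chain that pairs with beta 1, and Itgav (0.59), the shared chain of several receptors for fibronectin and osteopontin. The median over the 17 receptors was 0.38.

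Of 14 collagen and basement membrane genes, 9 were called higher in hypoxia against control, 0 lower and 5 were not called, at a median of 0.67. Without the fold limit 13 were higher and 1 was lower, Lamc1, a laminin chain (log2 fold change -0.31, edgeR adjusted p = 0.0022), named after its value was seen. Col1a1, the main fibrillar collagen chain, rose from 3593 to 8105 CPM (log2 fold change 1.17, edgeR adjusted p = 1.66e-10). With rSRGN 0 of 14 were called, and 5 were higher without the fold limit. Among 10 genes of the TGF-beta pathway or known to respond to it, 4 were called higher in hypoxia, most of all Tgif1, a repressor of that pathway (log2 fold change 1.86), and 0 lower. With rSRGN 1 was called higher, Skil, another repressor of the pathway (log2 fold change 0.61, edgeR adjusted p = 0.00101), and 4 were higher without the fold limit.

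Marker genes of other cell types are given for the same comparisons, since they can move with the 10 genes. In hypoxia against control, 9 of 12 fibroblast markers were called higher with a median of 0.90, led by Vim, an intermediate filament gene (log2 fold change 1.61). Those not called were Pdgfra (0.19), Lum (0.29) and Ddr2 (0.57), named after their values were seen. The list shares Col1a1, Col1a2 and Col3a1 with the collagen genes above and Ddr2 with the receptors. Epicardial markers were called higher for 7 of 7 with a median of 1.89, led by Upk1b (2.24). The summed levels of the epicardial list, 913 to 981 CPM in hypoxia and 836 to 919 CPM with rSRGN, were above the 247 to 271 CPM of control. Smooth muscle and pericyte markers were called higher for 2 of 9, led by Tagln (1.47), and lower for 2, led by Des (-2.82), which cardiomyocytes also express. Endothelial markers were called lower for 6 of 8, led by Vwf (-2.51), and higher for 0. The value of Vwf rests on few fragments, with a mean of 1.74 CPM in control and 0.303 CPM in hypoxia (SD 0.189, n = 3). Among the macrophage markers the gene with the steepest fall was C1qa, a complement gene, with 178 counts over the control libraries and 1 over those of hypoxia. Scaled to library size its ratio of control to hypoxia was 145, with an exact 95% interval of 25.8 to 5776 that covers counting error only. When rSRGN was added, Tcf21, a transcription factor of cardiac fibroblasts, was the fibroblast marker called lower (log2 fold change -0.76, edgeR adjusted p = 3.85e-05). Without the fold limit 1 of the 12 fibroblast markers was higher and 2 were lower. Of the epicardial markers, 0 were called. The part of these markers in the changes of the 10 genes was not tested.

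**Figure D4:**
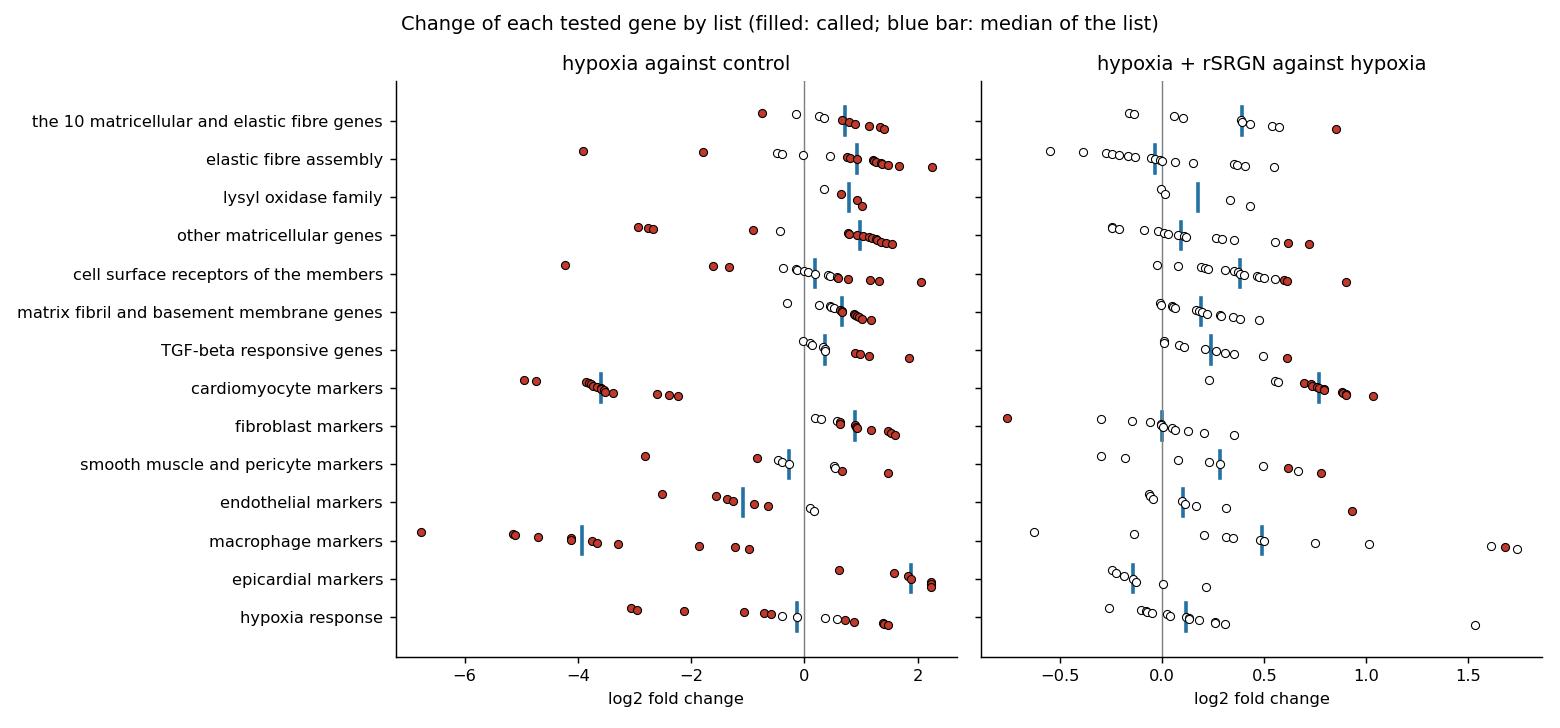
Log2 fold change of each tested gene (points, filled where called) and the median (blue bars) for the 10 genes and 13 lists in 2 comparisons, whose axes differ in range. The medians of the 10 genes are 0.72 and 0.39, and the cardiomyocyte markers stand at -3.60 in hypoxia against control and 0.77 with rSRGN against hypoxia.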

How the data were processed

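Counts of fragments per gene were deposited by the authors for 9 libraries without normalization. Per the file headers they were made with featureCounts 2.0.1 on exons of GENCODE mouse release 25 (GRCm38), paired-end and without a strand option. The submitters' processing notes also name HISAT2, whose version is not given in the sources used here. Libraries were sequenced from poly(A)-enriched RNA, and groups and replicate numbers were taken from the sample labels. All 9 columns of counts were used.

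The test was edgeR 4.0.16 in R 4.3.3 (filterByExpr, TMM, glmQLFit and glmQLFTest, 1 fit over 9 libraries, Benjamini-Hochberg adjustment over 16762 genes). Calls needed an adjusted p under 0.05 and at least a 1.5-fold change. Levels are CPM on TMM-scaled library sizes, and profiles used log2 CPM with a prior count of 2. Count ratios were compared with an exact permutation test over libraries (scipy 1.17.1). The scripts were tested on simulated data. Far fewer genes were changed there than were called in hypoxia against control, so a shift of that size was not tested. Replicates of a group differed by more than sampling noise and each was counted.

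The 10 genes and 13 lists were chosen with earlier results of these data known. Named from each list were the called gene with the largest rise and the one with the largest fall, without overlap between groups, in hypoxia against control and in hypoxia + rSRGN against hypoxia. For each of the 10 genes the gene with the highest Pearson r over the libraries was also named. Of the listed symbols, 1 (Adamtsl6) was not matched.

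Alternatives were DESeq2 1.42.0, RLE scaling, library size alone, a minimum of 1 count over all or 10 counts in every library, unadjusted p, no fold limit, a fit of the compared groups alone, a replicate block, and leaving out single libraries. Gene coordinates came from a GRCm38 annotation and promoters from RefSeq (GRCm38.p6). Protein sequences were not analysed here.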

Additional observations from a re-analysis of the deposited data

How the results depend on the processing

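Log2 fold changes of the 10 genes were recomputed under the 16 alternatives that change the fit or the libraries, and not the thresholds. Of these 480 values, 471 kept their direction and their status as called or not called. Another 1 lost its call, 8 gained one and 0 reversed. A call joins the adjusted p and the fold limit, so the adjusted p alone could cross its threshold while the status stayed. In hypoxia against control, Thbs1 was not called under any of the 16, though its adjusted p of 0.0231 rose as high as 0.224. The number of members called in hypoxia against control was 7, and 6 to 7 with each library left out (6 without control replicate 1, by Fn1). The number of members called in hypoxia + rSRGN against hypoxia was 1, but 2 with DESeq2, 2 with RLE scaling, 2 with only the groups compared (each adding Fbn1) and 6 with no fold change limit. With each library left out it was 1 to 3, with 3 (Tnc and Fbn1 added) without hypoxia replicate 2, and 2 (Fbn1 added) without hypoxia replicate 1, without hypoxia + rSRGN replicate 1 or without hypoxia + rSRGN replicate 3. The number of members called in hypoxia + rSRGN against control was 9 with every library left out. With the replicate number as a block these counts were 7, 1 and 9. Libraries with the same number did not deviate together (correlations of -0.04 to 0.02), so the numbers were not taken as pairs. Fbn1 in hypoxia against control was not called under any alternative, though its adjusted p ran from 0.0143 to 0.589. Of 702 counts over lists and alternatives, 658 stayed within 1.5 times their value. The macrophage count in hypoxia against control was 3 in place of 12 when 10 counts were required in every library, since most of these genes had few counts in hypoxia. No count of the 10 genes was under 977.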

Other observations

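Genes known to respond to low oxygen did not move in one direction in the hypoxia group. Of 15 listed, 5 were called higher and 6 lower in hypoxia, and the median log2 fold change was -0.13. Ndrg1, a gene known to be turned up by hypoxia, rose from 30.0 to 83.3 CPM (log2 fold change 1.48, edgeR adjusted p = 9.42e-11), while Pdk1, which restrains the entry of pyruvate into mitochondria, fell from 87.3 to 10.4 CPM (log2 fold change -3.06, edgeR adjusted p = 1.55e-15). With rSRGN against hypoxia, 0 of the 15 were called, and 2 were higher at an adjusted p below 0.05 without the fold limit.

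All 15 cardiomyocyte markers were called lower in hypoxia against control, and 12 of the 15 were called higher with rSRGN against hypoxia. Myh7, the slow myosin heavy chain, stood at 959 CPM in control and 31.0 CPM in hypoxia (log2 fold change -4.95, edgeR adjusted p = 1.02e-15). Nppa, the atrial natriuretic peptide gene, rose with rSRGN against hypoxia from 349 to 714 CPM (log2 fold change 1.03, edgeR adjusted p = 0.000673). Of 8 endothelial markers, 1 was called higher with rSRGN against hypoxia and 7 were not called, with a median log2 fold change of 0.10. It was Kdr, a receptor of vascular endothelial growth factor, which rose from 3.19 to 6.09 CPM (log2 fold change 0.93, edgeR adjusted p = 0.00448). Of 9 smooth muscle and pericyte markers 2 were called higher and 0 lower, while without the fold limit 4 were higher and 1 was lower, with a median of 0.29. Rgs5, a pericyte marker, rose from 4.62 to 7.90 CPM (log2 fold change 0.78, edgeR adjusted p = 0.0128).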
